A study of Mus musculus with 8 samples.

Results

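The secreted WNT ligands, their Frizzled receptors, the LRP coreceptors and the secreted antagonists of the pathway were examined in B16 and LLC tumors grown in WT and *Ccrl2* KO mice. Genes were taken by symbol: the *Wnt*, *Fzd*, *Dkk* and *Sfrp* families, together with *Lrp5*, *Lrp6*, *Wif1*, *Axin2*, *Lef1* and the R-spondins *Rspo1*, *Rspo2* and *Rspo3*. This rule gave 45 genes of the 47729 in the expression table: 19 ligands, 10 Frizzled receptors, 9 secreted inhibitors, and the coreceptors, R-spondins and target genes. The rule used no measured value.

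RNA was prepared from whole tumors of 4 groups: B16 melanoma or Lewis lung carcinoma (LLC), each grafted under the back skin of WT C57BL/6 mice or of *Ccrl2* KO mice, which lack a chemerin-binding receptor that does not signal. The grafted cells kept their own *Ccrl2* gene, so that WT and KO describe the host. The labels give day 5 after the graft for all groups, whereas figure legends of the study give an earlier day for B16. Each group had 2 libraries, and each library came from a pool of 3 tumors, so that the spread between libraries is a spread between pools and a single tumor was never measured alone. Both cell lines are syngeneic to C57BL/6: B16 is a pigmented melanoma line and LLC a carcinoma line, and each stands for 1 line only.

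WNT proteins are lipidated ligands that bind a Frizzled receptor on the cell surface. With the coreceptor LRP5 or LRP6 they stop the breakdown of β-catenin, which then acts with LEF1 and TCF factors on genes such as *Axin2*; other ligands act through Frizzled without β-catenin, on cell shape and polarity. DKK proteins block the coreceptors, SFRP proteins and WIF1 bind the ligands themselves, and R-spondins keep Frizzled and LRP on the membrane. In tumors the ligands and their antagonists come from the malignant cells and from fibroblasts, endothelium and other host cells.

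The tumor labels were checked against marker genes. The summed level of 9 melanocyte genes was 19999 to 24267 reads per M reads on genes (RPM) in the B16 libraries and 80.6 to 131 RPM in LLC. In LLC WT 3 of the 9 were at 0 in both libraries, and in LLC KO 3 were, not all the same genes. The sum of 5 simple epithelial genes was 278 to 472 RPM in LLC and 8.8 to 12.6 RPM in B16. Of these, *Krt7* went the other way (7.25 to 10.95 RPM in B16, at most 0.3 RPM in LLC). *Epcam* did not exceed 0.25 RPM in any library. Both were named after their values were seen. *Ccrl2* itself, which the grafted cells carry, was read at 3.1 to 4.25 RPM in B16 and 5.15 to 11.45 RPM in LLC, with overlapping host groups in LLC. Reads on genes were estimated at 17.6 to 30.8 M per library, and 3 reads correspond to 0.0973 to 0.17 RPM, which covers counting error only. Some libraries stood apart. B16 WT 1 held skeletal muscle transcripts (715 RPM over 8 genes, against 3.4 to 5.3 RPM elsewhere). Y-linked genes were read in both LLC KO libraries (65.9 and 71.5 RPM over 4 genes) and were at 0 in the other 6. Both LLC WT libraries held more *Lars2* (1194 and 1362 RPM, at most 163 RPM elsewhere). Each of these differences moved with a tumor, a host group or 1 library, and their part in the results was not tested.

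All 10 Frizzled receptors, 9 of the 19 ligands and 6 of the 9 secreted inhibitors reached 1 RPM in at least 2 libraries and were tested, with *Lrp5*, *Lrp6*, *Rspo3* and *Axin2*, 29 genes in all. The other 16 did not exceed 1 RPM in any library. They include *Wnt1*, *Wnt3*, *Wnt3a*, *Wnt4*, *Wnt7a*, *Wnt8a*, *Wnt8b*, *Wnt9b*, *Dkk1* and *Dkk4*, which were at 0 in at least 1 library, *Wif1* (at most 0.2 RPM), *Wnt6*, *Wnt10a*, *Rspo1*, *Rspo2* and *Lef1*. *Lef1*, a transcription factor of the pathway and one of its targets, was read at 0.5 and 0.65 RPM in B16 WT, 0.4 and 0.4 in B16 KO, 0.6 and 0.5 in LLC WT and 0.25 and 0.1 in LLC KO, too low to test. Of the 29 genes tested, 6 passed the filter through LLC libraries only (*Fzd8*, *Rspo3*, *Wnt2b*, *Wnt7b*, *Wnt10b* and *Wnt16*) and 2 through B16 only (*Fzd3* and *Fzd9*). For these 8 a difference between the tumors was built into the filter, and it is given as levels and a fitted difference, with no p-value. *Rspo3* passed through the 2 LLC WT libraries alone, so that a lower level in KO hosts was built in as well. Its host differences in LLC and on average are given as levels with no test. *Fzd8* reached 1 RPM in both LLC WT libraries and otherwise only in LLC KO 2 (1.15 RPM). The filter therefore favored a lower level of *Fzd8* in LLC KO. In B16, *Fzd10* reached 1 RPM only in B16 KO 2 (1.05 RPM), so that the filter favored a higher level in LLC. Both differences are given with no p-value. Counts of called genes, and the filled points of the figures, include these genes.

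**Figure D1:**
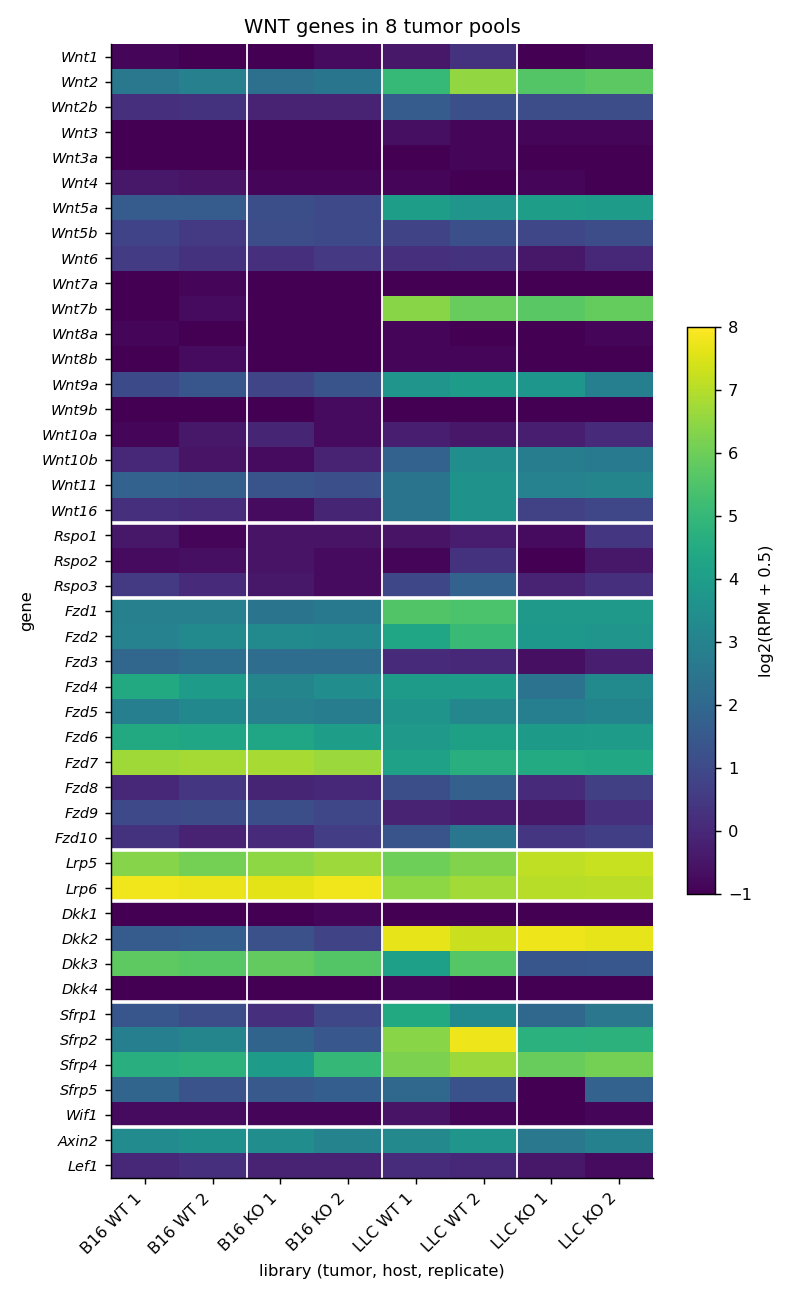
Level of the 45 genes in each of the 8 libraries, as log2(RPM + 0.5), with genes in lines grouped by role and libraries in columns grouped by tumor and host. *Wnt2*, *Wnt7b* and *Dkk2* are bright in the 4 LLC columns, *Fzd7* and *Lrp6* are brightest in the 4 B16 columns, and *Dkk3* is dark in the 2 LLC KO columns alone.

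The promoters of 4 genes are shown because these genes were called with large differences in the comparisons described next: *Dkk2* and *Fzd7* between the tumors, *Fzd1* and *Sfrp2* between the tumors and, within LLC, between the hosts. *Wnt7b*, *Dkk3* and *Fzd3* also differed strongly, and their promoters were not used here. Each is the 250 bases before the RefSeq transcript start in the mouse build GRCm38.p6, 5′ to 3′ on the strand of the gene. Capitals mark the GC box, GGGCGG or its complement CCGCCC, the core motif of Sp1-type factors.
Dkk2 (chr3:132085042-132085291, plus strand): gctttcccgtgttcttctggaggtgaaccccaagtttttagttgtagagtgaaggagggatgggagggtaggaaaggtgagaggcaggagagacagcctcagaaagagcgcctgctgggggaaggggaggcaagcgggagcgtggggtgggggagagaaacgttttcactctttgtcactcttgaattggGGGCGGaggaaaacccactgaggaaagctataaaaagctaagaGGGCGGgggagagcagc
Fzd1 (chr5:4758217-4758466, minus strand): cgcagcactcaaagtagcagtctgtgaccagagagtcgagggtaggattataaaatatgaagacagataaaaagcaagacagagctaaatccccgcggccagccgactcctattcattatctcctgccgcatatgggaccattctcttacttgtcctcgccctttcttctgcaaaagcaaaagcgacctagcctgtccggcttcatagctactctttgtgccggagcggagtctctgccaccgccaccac
Fzd7 (chr1:59481897-59482146, plus strand): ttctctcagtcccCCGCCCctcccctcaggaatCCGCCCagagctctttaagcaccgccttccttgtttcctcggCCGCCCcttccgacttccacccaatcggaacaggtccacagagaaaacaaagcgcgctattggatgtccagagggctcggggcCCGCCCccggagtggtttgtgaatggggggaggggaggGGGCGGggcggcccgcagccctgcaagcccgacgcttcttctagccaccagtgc
Sfrp2 (chr3:83766071-83766320, plus strand): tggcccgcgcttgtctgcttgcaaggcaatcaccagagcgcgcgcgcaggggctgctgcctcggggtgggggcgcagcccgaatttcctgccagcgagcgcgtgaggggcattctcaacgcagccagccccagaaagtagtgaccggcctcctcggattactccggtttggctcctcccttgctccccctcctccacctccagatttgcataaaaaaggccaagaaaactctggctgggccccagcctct

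The *Fzd7* window held 5 GC boxes and the *Dkk2* window 2, and none was found in the windows of *Fzd1* and *Sfrp2*. The GC content was 65.2% for *Fzd7*, 63.6% for *Sfrp2*, 55.6% for *Dkk2* and 51.2% for *Fzd1*. RefSeq promoters were at hand for 29 of the 45 genes (35 windows). A GC box on either strand was found in 25 of these 35 windows (71.43%), against 32.74% of 32851 windows of the same length from all genes. The TCF/LEF motif, searched as CTTTGAA or CTTTGAT on both strands, was found in 3 of the 35 windows (8.571%, in *Dkk1*, *Wnt5b* and *Wnt11*), against 7.479% of all windows. The melanocyte M-box TCACATG was in none of them, against 3.501% of all, and the E-box CACGTG was in 4 (11.43%, against 6.021%). The core of the hypoxia response element, ACGTGC, which can overlap an E-box, was in 1 (2.857%, against 4.916%). These matches describe letters in a window and are not binding sites.

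Several ligand genes lie side by side in the genome (GENCODE M21, GRCm38). *Wnt6* and *Wnt10a* stand 6.193 kb apart on chromosome 1, and neither was tested in these tumors. *Wnt1* and *Wnt10b* stand 11.706 kb apart on chromosome 15 in opposite orientation. *Wnt10b* reached 3.05 to 10.1 RPM in LLC and *Wnt1* at most 0.75 RPM. *Wnt3a* and *Wnt9a*, 16.175 kb apart on chromosome 11, differed in the same way: *Wnt9a* reached 6.95 to 15.1 RPM in LLC, *Wnt3a* at most 0.05 RPM. *Wnt9b* and *Wnt3*, 24.328 kb apart on the same chromosome, were both at or near 0.

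The first comparison set LLC against B16 tumors over both hosts. It asks which WNT genes separate the tumor types, and every difference in it mixes the grafted cells with the host cells each tumor attracts. All ligands tested other than *Wnt5b* were higher in LLC, though for part of them the filter required this. The receptors split about as all genes did, and the inhibitors moved apart, with *Dkk2* in LLC and *Dkk3* in B16. In limma's fit over 14706 genes, 18 of the 29 genes were higher in LLC and 6 lower at an adjusted p under 0.05. The 18 include the 6 genes that passed the filter through LLC libraries only, and *Fzd10*, which needed its LLC libraries to pass. The genes lower in LLC include the 2 that passed through B16 only. Over all genes tested, 39.9% were higher, 37.7% lower and 77.5% called in either direction. Log2 differences are given ± SE from the fit, and levels over several libraries as mean ± SD. The median log2 difference was 1.03 over the 29 genes and 0.026 over all genes tested, and the 29 include the genes whose difference was built into the filter. In whole tumors more cells of a type and more RNA per cell cannot be told apart.

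Of the 9 ligands tested, 8 were higher in LLC and none lower, against 39.9% and 37.7% of all genes tested. For *Wnt2b*, *Wnt7b*, *Wnt10b* and *Wnt16* the direction was built into the filter. *Wnt7b*, a ligand of lung and kidney epithelia that also acts on brain endothelium, was read at 84.5 and 59.1 RPM in LLC WT and 51.9 and 57.8 in LLC KO. In B16 it was at 0 in 3 libraries and at 0.1 RPM in the other. It was therefore all but restricted to LLC. The B16 value stands for 2 or 3 reads, and the ratio of LLC to B16 is 3356 (95% counting interval 929 to 27720) with 2 reads and 2238 (765 to 10853) with 3. Its fitted log2 difference was 6.91 ± 0.14, which depends on the pseudocount and ran from 4.99 to 9.89 over the pseudocounts tried. The direction was built into the filter.

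*Wnt2*, a canonical ligand known from lung and placental development, was read at 5.6 and 7.05 RPM in B16 WT and 4.55 and 5.1 in B16 KO. In LLC it was at 32.1 and 92 RPM in WT hosts and 48.3 and 53.2 in KO hosts. The LLC libraries were all above those of B16, and LLC WT 2 was the highest of all. The log2 difference was 3.14 ± 0.29, adjusted p = 2.26e-05. *Wnt5a*, the prototype of the ligands that act without β-catenin, gave 2.55 and 2.6 RPM in B16 WT, 1.75 and 1.5 in B16 KO, 16.2 and 12.4 in LLC WT and 15.8 and 15.2 in LLC KO. It was higher in LLC by a log2 difference of 2.59 ± 0.12, adjusted p = 4.72e-07, and the libraries of each tumor lay close together.

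The other ligands that rose were expressed at lower levels. *Wnt9a*, known for its part in joint formation, was at 11.8 ± 3.44 RPM in LLC and 1.77 ± 0.386 in B16 (n = 4 libraries), a log2 difference of 2.40 ± 0.21, adjusted p = 1.84e-05. *Wnt10b*, a ligand that favors bone over fat formation, was at 3.05 and 10.1 RPM in LLC WT and 6.3 and 6.25 in LLC KO and at most 0.5 RPM in B16 (3.04 ± 0.33). *Wnt11*, which acts mainly without β-catenin, was at 7.96 ± 2.65 RPM in LLC and 2.42 ± 0.595 in B16 (1.5 ± 0.22, adjusted p = 0.000403). *Wnt16*, known for cortical bone, ran from 1.2 to 11.6 RPM in LLC and did not exceed 0.65 RPM in B16 (2.05 ± 0.26). *Wnt2b*, close in sequence to *Wnt2*, was at 1.95 ± 0.436 and 0.55 ± 0.178 RPM (1.22 ± 0.14). *Wnt5b*, the paralog of *Wnt5a*, was at 1.55 ± 0.238 RPM in LLC and 1.35 ± 0.324 in B16, with overlapping libraries (0.16 ± 0.14, adjusted p = 0.331; 95% interval -0.17 to 0.49).

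Per kb of exon, which allows levels of different genes to be compared, the 19 ligands summed to 4.44 to 6.07 RPM per kb in the B16 libraries and to 42.3 to 69.3 in LLC. *Wnt2* led in all B16 libraries with 45 to 51.5% of this sum. In LLC WT 1 *Wnt7b* led with 40.8%, and in the other 3 LLC libraries *Wnt2* led with 49.9 to 58.9%. LLC tumors thus carried a higher ligand level made up mostly of *Wnt2* and *Wnt7b* transcripts, and which of the pair led differed between the LLC WT pools.

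The 10 Frizzled receptors split between the tumors, with 4 higher and 4 lower in LLC, close to the 39.9% and 37.7% of all genes tested. For *Fzd3*, *Fzd8* and *Fzd9* the direction was built into the filter, and for *Fzd10* the filter favored it. *Fzd7*, a receptor closely related to *Fzd1* and *Fzd2*, was read at 105 and 111 RPM in B16 WT and 112 and 101 in B16 KO. It was at 17.3 and 25.1 RPM in LLC WT and 22 and 19.9 in LLC KO. The tumors did not overlap, and the log2 difference was -2.33 ± 0.11, adjusted p = 6.73e-07. *Fzd1* went the other way, with 7.0 and 7.05 RPM in B16 WT and 4.95 and 5.8 in B16 KO, and 46.6 and 43.2 RPM in LLC WT and 13.9 and 13.8 in LLC KO (1.94 ± 0.09, adjusted p = 4e-07). Every LLC library was above every B16 library, and the LLC libraries fell into separate host groups.

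*Fzd2*, which can act in both branches of the pathway, was at 19.8 ± 10 RPM in LLC and 8.7 ± 0.913 in B16 (n = 4), a log2 difference of 1.03 ± 0.18, adjusted p = 0.00096. *Fzd8* and *Fzd10*, both at low levels, were higher in LLC (0.84 ± 0.21 for *Fzd8* and 1.03 ± 0.28 for *Fzd10*). For both genes some LLC KO libraries lay within or next to the range of B16. *Fzd3*, a receptor of planar polarity and axon guidance, was at 3.45 to 4.3 RPM in B16 and 0.15 to 0.55 RPM in LLC (-2.37 ± 0.14). *Fzd9* was at 1.4 to 1.75 RPM in B16 and 0.25 to 0.65 RPM in LLC (-1.19 ± 0.16). *Fzd6*, a second polarity receptor, was slightly lower in LLC (-0.32 ± 0.09, adjusted p = 0.0154), and its call was lost without B16 WT replicate 1 (-0.28, adjusted p = 0.062) and without B16 KO replicate 1 (-0.26, adjusted p = 0.058). *Fzd4*, the receptor of norrin in retinal vessels, and *Fzd5* did not pass (-0.32 ± 0.21, adjusted p = 0.193 for *Fzd4*; 0.26 ± 0.14, adjusted p = 0.135 for *Fzd5*). Without LLC KO replicate 2 *Fzd4* passed at -0.54 (adjusted p = 0.018), and without LLC WT replicate 2 *Fzd5* passed at 0.38 (adjusted p = 0.03).

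Summed per kb of exon, the Frizzled receptors came to 33.2 to 37.6 RPM per kb in the B16 libraries, of which *Fzd7* made up 63.1 to 69.0%. In LLC WT the sums were 28.3 and 34.4 RPM per kb, led by *Fzd1* with 39.3% and 29.9%. In LLC KO they were 17.0 and 17.6 RPM per kb, led by *Fzd7* with 28.5% and 25%. The receptor in front therefore differed between the tumors in WT hosts, and the LLC KO pools had the lowest sums of all groups.

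**Figure D2:**
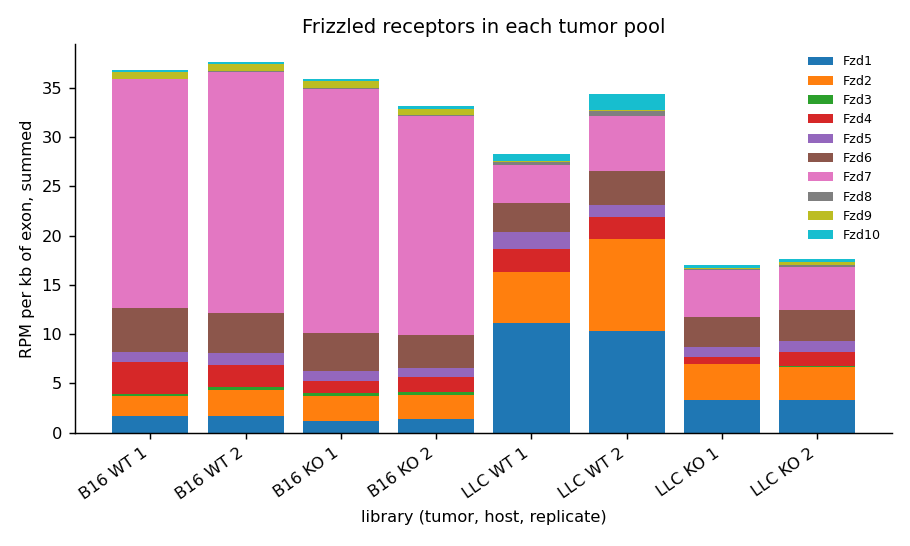
Frizzled receptor transcripts in each of the 8 libraries, stacked by receptor, in RPM per kb of exon. *Fzd7* makes up most of the bar in B16 (63.1 to 69.0%), *Fzd1* is the largest share in the LLC WT bars, and the LLC KO bars reach only 17.0 and 17.6.

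*Lrp6*, the coreceptor most needed for β-catenin signaling in the embryo, was read at 223 and 211 RPM in B16 WT and 196 and 225 in B16 KO. It was at 88.7 and 108 RPM in LLC WT and 129 and 132 in LLC KO, all below B16 (-0.91 ± 0.08, adjusted p = 1.33e-05). *Lrp5*, its paralog known from bone mass and retinal vessels, was close to the threshold (0.26 ± 0.09, adjusted p = 0.0318), and the tumors overlapped. Its call was lost with TMM scaling (0.17, adjusted p = 0.142), and also without B16 WT replicate 2 (adjusted p = 0.115), B16 KO replicate 1 (0.109), LLC WT replicate 2 (0.08), LLC KO replicate 1 (0.052) or LLC KO replicate 2 (0.089). *Rspo3*, an R-spondin made by endothelium and stroma, was at 1.45 and 3.05 RPM in LLC WT, 0.4 and 0.7 in LLC KO, 0.95 and 0.55 in B16 WT and 0.25 and 0.1 in B16 KO (0.86 ± 0.23). Its LLC KO libraries lay within the range of B16.

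Of the 6 secreted inhibitors tested, 4 were higher and 1 lower in LLC, against 39.9% and 37.7% of all genes tested. *Dkk2*, which binds LRP5 and LRP6, was read at 2.55 and 2.7 RPM in B16 WT and 1.85 and 1.3 in B16 KO. In LLC it was at 202 and 157 RPM in WT hosts and 219.6 and 204 in KO hosts. Its mean was 93.1 times higher in LLC, far beyond the spread within either tumor (6.26 ± 0.12, adjusted p = 6.62e-09). *Sfrp2*, a fibroblast product that binds WNT proteins, was at 85 and 218 RPM in LLC WT and 26.6 and 26.8 in LLC KO, against 6.85 and 8.1 in B16 WT and 3.25 and 2.25 in B16 KO (3.59 ± 0.27, adjusted p = 7.26e-06). *Sfrp1* was at 3.5 to 21.6 RPM in LLC and 0.65 to 2.15 RPM in B16 (2.16 ± 0.29, adjusted p = 0.000229), and *Sfrp4*, of the other SFRP branch, at 75.5 ± 17.2 and 24.4 ± 7.0 RPM (n = 4; 1.63 ± 0.22, adjusted p = 0.000204). *Sfrp5* did not pass (-0.58 ± 0.55, adjusted p = 0.358), with 1.9 to 3.5 RPM in 7 libraries and 0 in LLC KO 1.

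*Dkk3*, a divergent DKK protein that does not block the LRP coreceptors as the others do, was lower in LLC (-2.58 ± 0.29, adjusted p = 7.26e-05). It was read at 53.7 and 50.7 RPM in B16 WT and 56.2 and 48 in B16 KO, at 16.6 and 48.9 RPM in LLC WT and at 2.15 and 2.2 RPM in LLC KO. One LLC WT library was at the B16 level, and the difference between the tumors lay mainly in KO hosts. Per kb of exon, *Dkk3* led the inhibitors in every B16 library (54.9 to 70.7% of 23.7 to 28 RPM per kb). In LLC the sum was 87.1 to 185 RPM per kb, led by *Dkk2* in 3 libraries (44.1, 68.0 and 62.8% in LLC WT 1, LLC KO 1 and LLC KO 2) and by *Sfrp2* in LLC WT 2 (54.8%).

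*Axin2*, the target gene most often read as a measure of β-catenin signaling, did not differ between the tumors beyond its spread (-0.20 ± 0.15, adjusted p = 0.26; 95% interval -0.55 to 0.15). Its level was 9.65 and 10.8 RPM in B16 WT, 10.2 and 7.6 in B16 KO, 9.0 and 12.4 in LLC WT and 5.65 and 7.2 in LLC KO.

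**Figure D3:**
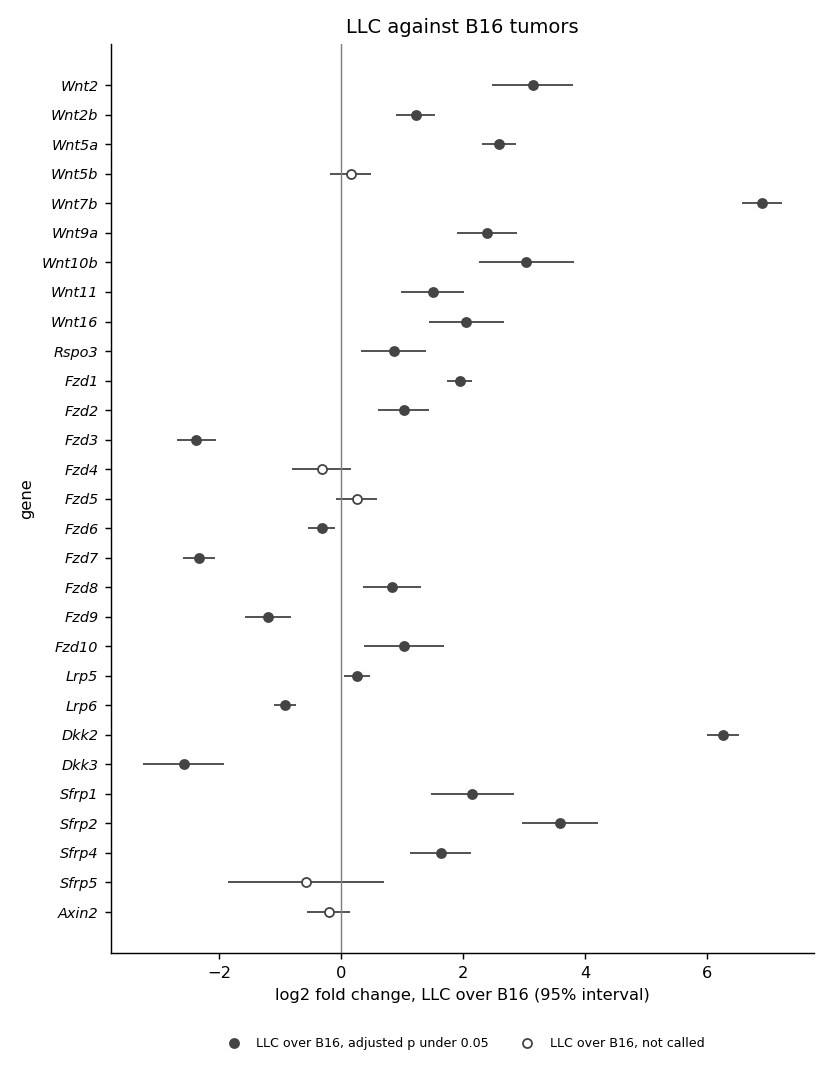
Log2 fold change of LLC over B16 tumors for the 29 genes tested, with 95% intervals from limma; filled points have an adjusted p under 0.05. *Wnt7b* (6.91) and *Dkk2* (6.26) stand far to the right, and *Dkk3* (-2.58), *Fzd3* (-2.37) and *Fzd7* (-2.33) are farthest to the left. For genes that passed the filter through LLC only or B16 only, such as *Wnt7b* and *Fzd3*, the direction was built in. For *Fzd10* the filter favored it.

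Fibroblast genes moved with this comparison. The summed level of 13 fibroblast markers was 1646 to 2926 RPM in B16 and 22017 to 47441 RPM in LLC, and 13 of 13 were called higher in LLC. LLC WT 2 held the most (47441 RPM, against 25188 in LLC WT 1) and was also the library with the most *Wnt2*, *Wnt10b*, *Wnt11*, *Wnt16*, *Sfrp2* and *Fzd2*, among others. Other genes went the opposite way and were higher in LLC WT 1. These were *Wnt7b* (84.5 against 59.15 RPM), *Dkk2* (202 against 157 RPM), *Sfrp1* (21.6 against 9.15 RPM), *Wnt5a*, *Wnt2b*, *Fzd1* and *Fzd5*, among others. The part of fibroblasts in the differences between the tumors was not tested.

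The second comparison set LLC tumors in *Ccrl2* KO hosts against those in WT hosts. Of the 10 receptors 5 were lower in KO hosts, as were 3 of the 6 inhibitors tested (*Dkk3*, *Sfrp1* and *Sfrp2*), and both coreceptors were higher, while the ligands other than *Wnt16* gave no call. Of the 29 genes, 2 were higher and 11 lower (10 without *Rspo3*), against 15.1% of all tested genes higher, 23.1% lower and 38.3% called in either direction. The 11 also include *Fzd8*, which needed its LLC WT libraries to pass the filter. The median log2 difference was -0.44 over the 29 genes and -0.09 over all genes tested. Of all called genes, 39.6% were higher as deposited, 54.0% with TMM scaling and 53.8% with median-of-ratios scaling. Among the 29, both scalings left 2 higher and 10 lower, with *Axin2* no longer called. The counts were 1 higher and 4 lower without LLC KO replicate 1, and 3 higher and 7 lower without LLC WT replicate 2.

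*Dkk3* fell most. It was read at 16.6 and 48.9 RPM in LLC WT and 2.15 and 2.2 RPM in LLC KO, a mean 15 times lower in KO hosts. The 2 KO libraries were nearly equal and the WT libraries were 2.95 times apart, without overlap between the hosts. The log2 difference was -3.44 ± 0.41, adjusted p = 0.00151. It was -4.21 (adjusted p = 9.91e-05) without LLC WT replicate 1 and -2.67 (adjusted p = 0.000456) without LLC WT replicate 2.

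The SFRP genes fell in part. *Sfrp2* went from 85 and 218 RPM in WT hosts to 26.6 and 26.8 RPM in KO hosts, with close KO libraries and WT libraries 2.57 times apart. The log2 difference was -2.33 ± 0.38, adjusted p = 0.00401, with -3.01 (adjusted p = 0.000424) without LLC WT replicate 1 and -1.65 (adjusted p = 0.00338) without LLC WT replicate 2. *Sfrp1* was at 21.6 and 9.15 RPM in WT hosts and 3.5 and 5.4 RPM in KO hosts (-1.59 ± 0.41, adjusted p = 0.0208), and here LLC WT 1 was the higher WT library. It missed the threshold once LLC WT replicate 1 (-0.99, adjusted p = 0.069) was left out and without LLC KO replicate 1 (-1.31, adjusted p = 0.113), and it was -2.18 (adjusted p = 0.0067) without LLC WT replicate 2. *Sfrp4* was at 73.8 and 99.6 RPM in WT and 59 and 69.8 RPM in KO hosts and did not pass (-0.42 ± 0.31, adjusted p = 0.313), nor did *Sfrp5* (-1.22 ± 0.78, adjusted p = 0.246). *Dkk2* was at 202 and 157 RPM in WT and 219.6 and 204 RPM in KO hosts (0.25 ± 0.16, adjusted p = 0.251; 95% interval -0.13 to 0.63), so that the most abundant DKK transcript of LLC gave no call.

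Of the 10 Frizzled receptors, 5 fell and none rose. The 5 include *Fzd8*, whose lower level the filter favored. *Fzd1* went from 46.6 and 43.2 RPM in WT hosts to 13.9 and 13.8 RPM in KO hosts. Both groups were tight, the mean was 3.24 times lower in KO hosts, and this was the smallest adjusted p among the 29 genes (-1.66 ± 0.12, adjusted p = 0.000306). The call held in every alternative tried, with -1.71 to -1.56. *Fzd2* went from 19 and 34.1 to 13.4 and 12.4 RPM (-0.95 ± 0.25, adjusted p = 0.0223) and *Fzd4* from 15.4 and 14.8 to 4.9 and 9.45 RPM (-1.09 ± 0.29, adjusted p = 0.0229). For both genes the host groups did not overlap.

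*Fzd8* and *Fzd10* fell from low levels. *Fzd8* went from 1.75 and 2.85 to 0.55 and 1.15 RPM (-1.06 ± 0.29), a direction that the filter favored. *Fzd10* went from 2.05 and 5.35 to 0.85 and 1.1 RPM (-1.39 ± 0.39, adjusted p = 0.0278). Single libraries decided the calls of these receptors other than *Fzd1*. *Fzd2* did not pass when LLC WT replicate 2 (-0.54, adjusted p = 0.054), LLC KO replicate 1 (adjusted p = 0.075) or LLC KO replicate 2 (0.09) was left out. The call of *Fzd4* was gone without LLC KO replicate 1 (-0.65, adjusted p = 0.105), LLC WT replicate 1 (0.063) or LLC WT replicate 2 (0.058). *Fzd8* was at -0.73 without LLC KO replicate 1 and at -0.77 without LLC WT replicate 2. *Fzd10* failed to pass when LLC WT replicate 2 (-0.79, adjusted p = 0.097), LLC KO replicate 1 (0.121) or LLC KO replicate 2 (0.073) was dropped, and was -1.99 (adjusted p = 0.00459) without LLC WT replicate 1. All of them were also lost when LLC was fitted alone, with fewer libraries to estimate the spread from.

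*Fzd7*, the leading receptor of B16, was at 17.3 and 25.1 RPM in LLC WT and 22 and 19.9 RPM in LLC KO, with a log2 difference of 0.01 ± 0.16, adjusted p = 0.986 and a 95% interval of -0.37 to 0.38. The hosts overlapped. *Fzd3*, *Fzd5*, *Fzd6* and *Fzd9* did not pass, with adjusted p-values of 0.0954, 0.119, 0.703 and 0.793. *Fzd5* passed at -0.69 (adjusted p = 0.037) without LLC WT replicate 2.

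Both coreceptors rose in KO hosts. *Lrp5* was read at 63.4 and 78.4 RPM in LLC WT and 141 and 149.9 RPM in LLC KO, without overlap and with a mean 2.05 times higher in KO hosts (1.04 ± 0.13, adjusted p = 0.00189). The call held in every alternative tried, from 0.88 to 1.19. *Lrp6* was at 88.7 and 108 RPM in WT and 129 and 132 RPM in KO hosts, a smaller difference (0.42 ± 0.11, adjusted p = 0.0195). Leaving out LLC WT replicate 1 (0.28, adjusted p = 0.052), LLC KO replicate 1 (adjusted p = 0.078) or LLC KO replicate 2 (0.087) ended this call.

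Among the 9 ligands, 1 was called. *Wnt16* went from 4.95 and 11.6 RPM in WT hosts to 1.2 and 1.4 RPM in KO hosts, and its WT libraries lay far apart without reaching the KO level (-2.18 ± 0.37, adjusted p = 0.00487). *Wnt7b* was at 84.5 and 59.1 RPM in WT and 51.9 and 57.8 RPM in KO hosts (-0.37 ± 0.20, adjusted p = 0.183), and it passed at -0.62 (adjusted p = 0.049) without LLC WT replicate 2. *Wnt2* was at 32.1 and 92 RPM in WT and 48.3 and 53.2 RPM in KO hosts, so that both KO libraries lay between the WT libraries. Its log2 difference was -0.10 ± 0.41, adjusted p = 0.864, and its direction turned on the WT library kept: -0.85 (adjusted p = 0.0088) without LLC WT replicate 1 and 0.65 (adjusted p = 0.027) without LLC WT replicate 2. *Wnt11* behaved alike, with 0.00 ± 0.32, adjusted p = 0.997 over all libraries and -0.55 (adjusted p = 0.05) without LLC WT replicate 1. For *Wnt10b* the difference was 0.15 ± 0.47, adjusted p = 0.828 over all libraries, and it was -0.64 once LLC WT replicate 1 was left out and 0.93 once LLC WT replicate 2 was, neither of which passed. *Wnt5a* was at 16.2 and 12.4 and 15.8 and 15.2 RPM (0.13 ± 0.17, adjusted p = 0.571). *Wnt2b*, *Wnt5b* and *Wnt9a* did not pass either, with log2 differences of -0.28, 0.01 and -0.52.

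*Rspo3* was at 1.45 and 3.05 RPM in WT and 0.4 and 0.7 RPM in KO hosts, the order that its filter required. *Axin2* went from 9.0 and 12.4 RPM in WT hosts to 5.65 and 7.2 RPM in KO hosts, without overlap and close to the threshold (-0.69 ± 0.21, adjusted p = 0.0383). The call was lost with TMM (-0.60, adjusted p = 0.067) and median-of-ratios scaling (-0.60, adjusted p = 0.063). It was also lost without B16 WT replicate 1 (adjusted p = 0.065), B16 WT replicate 2 (0.065), LLC WT replicate 2 (-0.47, adjusted p = 0.157), LLC KO replicate 1 (0.185) or LLC KO replicate 2 (0.057).

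**Figure D4:**
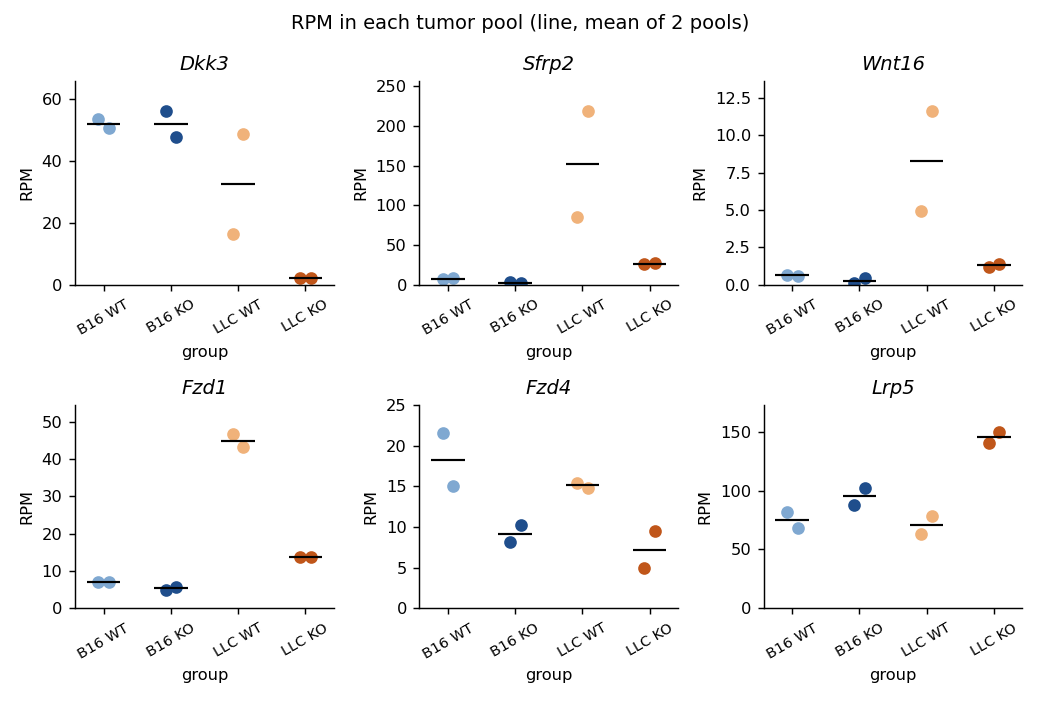
RPM of 6 genes in each tumor pool by group, with a line at the mean of the 2 pools; each panel starts at 0. *Dkk3*, *Sfrp2*, *Wnt16* and *Fzd1* are low in both LLC KO pools, the LLC WT pools lie far apart for the first 3, *Fzd4* is lower in KO hosts of both tumors, and *Lrp5* is highest in LLC KO.

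Markers of blood vessels, leukocytes and part of the fibroblast list moved with this comparison, in which 38.3% of all genes tested were called. The summed level of 12 blood endothelial markers was 310 and 247 RPM in LLC WT and 17.8 and 85.2 RPM in LLC KO, with 11 of 12 called lower (median log2 difference -2.84). The sum of 4 lymphatic endothelial markers went the other way (169 and 180 RPM in WT, 261 and 251 RPM in KO hosts), with 1 called higher and 1 lower. For 8 pericyte and smooth muscle markers the sums were 197 and 150 RPM in WT and 17.9 and 89.5 RPM in KO hosts, with 3 of 8 lower. For 13 fibroblast markers they were 25188 and 47441 RPM in WT and 22904 and 22017 RPM in KO hosts, with 6 of 13 lower and none higher (median -0.88). The fibroblast list did not move as one: *Dcn* (850 and 1287 RPM in WT, 1663 and 1634 in KO hosts) and *Dpt* (415 and 723, 1002 and 964 RPM), named after their values were seen, were read higher in KO hosts. The leukocyte markers summed to 895 and 1272 RPM in WT and 681 and 862 RPM in KO hosts, and 4 of the 7 tested were lower (median -0.64). None of these markers was at 0 in all libraries of a group. The LLC KO libraries also differed from each other: LLC KO 1 had less blood endothelium, less *Fzd4* (4.9 and 9.45 RPM) and less adipocyte signal (2.95 against 93.2 RPM over 7 genes). The part of these cells in the lower *Dkk3*, *Sfrp*, *Fzd*, *Rspo3* and *Wnt16* levels was not tested. The Y-linked signal, found in LLC KO only, and the higher *Lars2* of LLC WT cannot be told apart from the host.

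The third comparison set B16 tumors in KO hosts against those in WT hosts. None of the 29 genes was called higher or lower, and neither was any of the 14706 genes tested (0% called), at an adjusted p under 0.05 in limma. At an unadjusted p under 0.05, 7 of the 29 genes passed, and 435 higher and 1007 lower genes passed over the whole table. With B16 fitted alone no gene was called either. The median log2 difference was -0.20 over the 29 genes and -0.05 over all genes tested, and the smallest adjusted p among the 29 was 0.4.

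The values in B16 are given for the genes called in LLC and for those with an unadjusted p under 0.05. *Sfrp2* was at 6.85 and 8.1 RPM in WT and 3.25 and 2.25 RPM in KO hosts, without overlap (-1.31 ± 0.38, adjusted p = 0.434). *Fzd4* was at 21.5 and 15 RPM in WT and 8.1 and 10.2 RPM in KO hosts, also without overlap (-0.94 ± 0.29, adjusted p = 0.44). *Dkk2* was at 2.55 and 2.7 RPM in WT and 1.85 and 1.3 RPM in KO hosts (-0.60 ± 0.16, adjusted p = 0.4) and *Wnt5a* at 2.55 and 2.6 and 1.75 and 1.5 RPM (-0.54 ± 0.17, adjusted p = 0.44). These genes were read lower in KO hosts, and the test over all genes did not call them.

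*Dkk3* was at 53.7 and 50.7 RPM in WT and 56.2 and 48 RPM in KO hosts, with overlap, and its 95% interval on the log2 scale was -0.95 to 0.94. *Fzd1* was at 7.0 and 7.05 and 4.95 and 5.8 RPM (-0.36 ± 0.12, adjusted p = 0.456) and *Lrp5* at 82 and 68.5 and 88 and 102 RPM (0.34 ± 0.13, adjusted p = 0.493). *Rspo3* was at 0.95 and 0.55 and 0.25 and 0.1 RPM (-0.88 ± 0.32, adjusted p = 0.478), close to the level of 3 reads in KO hosts. *Fzd7*, the main receptor of B16, did not separate the hosts (-0.02 ± 0.16, adjusted p = 0.973; 95% interval -0.40 to 0.35), and *Lrp6* did not either (-0.05 ± 0.11, adjusted p = 0.899; 95% interval -0.30 to 0.20). *Axin2* gave -0.20 ± 0.21, adjusted p = 0.772.

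The other genes called lower in LLC were read at low levels in B16, apart from *Fzd2*. *Sfrp1* was at 2.15 and 1.7 RPM in WT and 0.65 and 1.4 RPM in KO hosts (-0.71 ± 0.41, adjusted p = 0.595), *Wnt16* at 0.65 and 0.6 and 0.1 and 0.45 RPM (-0.58 ± 0.37, adjusted p = 0.626) and *Fzd8* at 0.5 and 0.85 and 0.45 and 0.5 RPM (-0.25 ± 0.29, adjusted p = 0.788). *Fzd2* was at 7.4 and 9.5 and 9.1 and 8.8 RPM (0.09 ± 0.25, adjusted p = 0.926) and *Fzd10* at 0.75 and 0.4 and 0.55 and 1.05 RPM (0.27 ± 0.39, adjusted p = 0.837), with values above 0 where those in LLC were below.

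The blood endothelial markers summed to 187 and 135 RPM in B16 WT and 63.8 and 54.5 RPM in B16 KO, with 0 of 12 called (median log2 difference -1.43). The pericyte and smooth muscle markers summed to 142 and 78.2 RPM in WT and 36.5 and 28.8 RPM in KO hosts (0 of 8 called, median -1.38). In this sum *Des* alone gave 67.4 RPM in B16 WT 1, the library with skeletal muscle transcripts, and 7.75 RPM in B16 WT 2. The fibroblast markers summed to 2366 and 2926 RPM in WT and 1646 and 1975 RPM in KO hosts (0 of 13 called, median -0.55). All 3 sums were lower in KO hosts. Two-sided overlap was seen for leukocyte markers (320 and 401 RPM in WT, 279 and 348 RPM in KO hosts). It was also seen for lymphatic endothelial markers (66.2 and 74.45 RPM in WT, 45.5 and 108 RPM in KO hosts). The part of these cells was not tested.

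**Figure D5:**
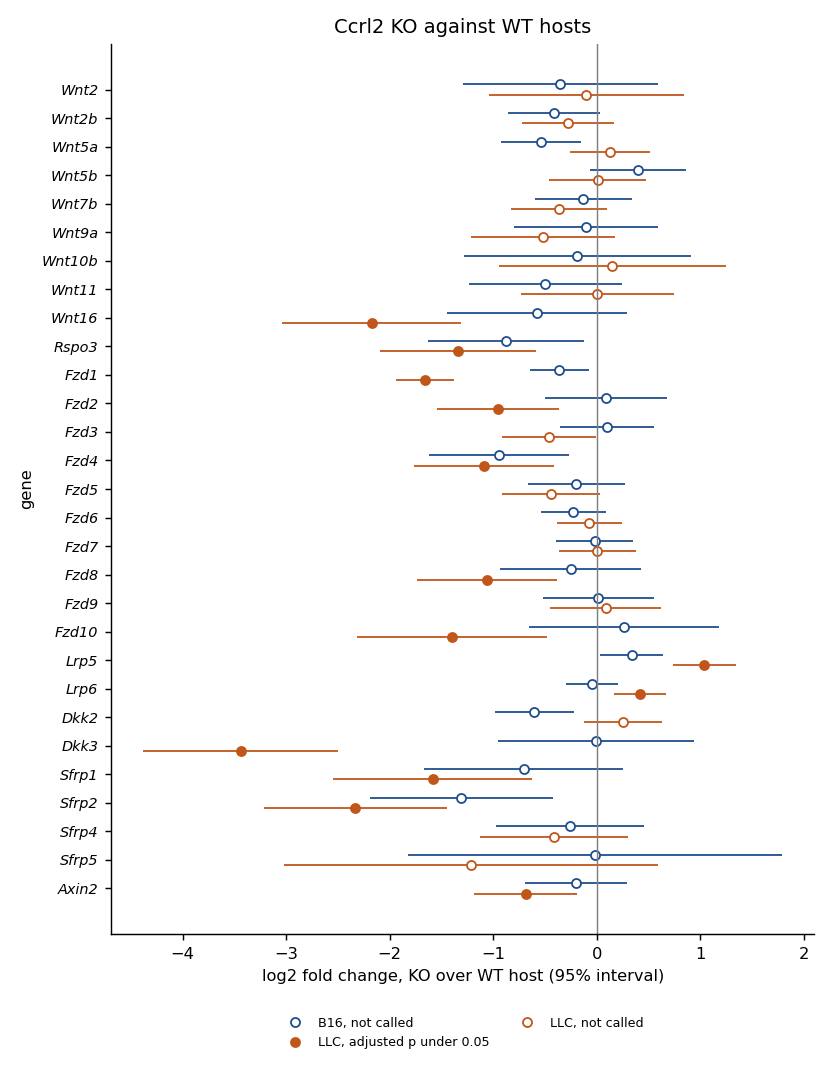
Log2 fold change of KO over WT hosts in B16 (blue) and LLC (orange) tumors for the 29 genes tested, with 95% intervals from limma; filled points have an adjusted p under 0.05. No B16 point is filled, 13 LLC points are, and the points of *Dkk3*, *Fzd1* and *Lrp5* lie apart between the tumors. The filled LLC points include *Rspo3*, whose lower level in KO hosts was built into the filter, and *Fzd8*, for which the filter favored it.

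Averaged over both tumors, 1 of the 29 genes was higher in KO hosts and 7 were lower (6 without *Rspo3*), against 8.12% of all tested genes higher, 14.9% lower and 23% in either direction. Of all called genes, 35.3% were higher as deposited, 65.8% with TMM scaling and 60.9% with median-of-ratios scaling. The 29 genes then gave 2 higher (with *Lrp6*) and 7 lower under TMM, and 1 and 7 under median of ratios. As deposited, 3 were lower without B16 WT replicate 1 and 12 without LLC WT replicate 1. *Fzd4*, which was read lower in KO hosts in both tumors, was called here (-1.02 ± 0.21, adjusted p = 0.017), as were *Fzd1* (-1.01 ± 0.09, adjusted p = 0.00145), *Sfrp2* (-1.82 ± 0.27, adjusted p = 0.00726), *Dkk3* (-1.72 ± 0.29, adjusted p = 0.0101), *Wnt16* (-1.38 ± 0.26, adjusted p = 0.0148) and *Sfrp1* (-1.15 ± 0.29, adjusted p = 0.0307). *Lrp5* was higher (0.69 ± 0.09, adjusted p = 0.00578). *Dkk3*, *Fzd1*, *Lrp5* and *Sfrp2* kept their call in every alternative tried. *Fzd4* was lost without B16 WT replicate 1 (-0.89, adjusted p = 0.065), B16 KO replicate 1 (0.053) or B16 KO replicate 2 (0.051). *Wnt16* was lost without B16 WT replicate 1 (0.058) or B16 WT replicate 2 (0.057). *Sfrp1* was lost without any 1 of the B16 libraries (adjusted p from 0.057 to 0.102) or without LLC KO replicate 1 (0.095). *Axin2* did not pass (-0.44 ± 0.15, adjusted p = 0.0692). The average of *Dkk3* joins a difference in LLC with none read in B16, and the comparisons share their libraries.

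The difference of the host effect between the tumors was tested itself. Of the 29 genes, 2 had a higher and 2 a lower host effect in LLC than in B16, against 8.15% higher, 7.05% lower and 15.2% in either direction over all genes tested. The share of the 29 that was called (13.8%) was thus close to that of all genes. The counts were 2 higher and 6 lower without LLC WT replicate 1, 4 higher and 2 lower without LLC WT replicate 2, and 0 higher and 1 to 3 lower without any other library. *Fzd1* had a log2 host effect of -1.66 in LLC and -0.36 in B16, a difference of -1.30 ± 0.17, adjusted p = 0.00718, and its call held in every alternative. For *Dkk3* the effects were -3.44 and -0.01, a difference of -3.43 ± 0.57, adjusted p = 0.0135. It was -4.20 (adjusted p = 0.000563) without LLC WT replicate 1 and -2.66 (adjusted p = 0.00238) without LLC WT replicate 2. It was lost without B16 WT replicate 1 (adjusted p = 0.059), B16 WT replicate 2 (0.061), B16 KO replicate 1 (0.062) or LLC KO replicate 1 (0.052). *Lrp5* (0.70 ± 0.19, adjusted p = 0.0437) and *Dkk2* (0.86 ± 0.23, adjusted p = 0.0453) were close to the threshold. *Lrp5* lost its call without any 1 library other than LLC WT replicate 2 (adjusted p from 0.054 to 0.142), and *Dkk2* without any 1 library other than LLC WT replicate 1 (0.06 to 0.139). For *Wnt16*, *Sfrp2*, *Fzd2* and *Fzd10*, called lower in LLC and not in B16, the difference between the tumors did not pass, with adjusted p-values of 0.0782, 0.222, 0.0867 and 0.0816. *Fzd4*, with -1.09 in LLC and -0.94 in B16, gave a difference of -0.14 ± 0.41, adjusted p = 0.833, with a 95% interval of -1.11 to 0.82.

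A wider list of 69 WNT pathway genes, from ligand secretion to the β-catenin targets, was set beside these genes, and 60 of them were tested. Between the tumors 32 were higher and 22 lower in LLC (90% called, against 77.5% of all genes tested). *Adgra2*, a coreceptor for WNT7 ligands on endothelium, was at 196 and 205 RPM in LLC WT and 164 and 162 in LLC KO, against 21.1 and 23.7 in B16 WT and 19.4 and 20.3 in B16 KO (3.07 ± 0.06, adjusted p = 6.62e-09). *Igfbp4*, a binding protein of growth factors that also inhibits WNT signaling, gave 3.27 ± 0.08, adjusted p = 1.93e-08. *Apc2*, a relative of the β-catenin scaffold APC, gave 4.72 ± 0.12, with 0.4 to 0.6 RPM in B16. *Celsr2*, a cadherin of planar polarity, was lower in LLC (-4.86 ± 0.11), at 17.4 to 19.1 RPM in B16 and 0.05 to 0.25 RPM in LLC. *Apc2* passed the filter through LLC libraries only and *Celsr2* through B16 only, so that these 2 differences were built in. The counts include such genes. In this comparison most genes of any kind differed.

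Between the hosts of LLC tumors, 14 of the 60 were higher and 14 lower (46.7% called, against 38.3% of all genes tested), with a median log2 difference of -0.06. *Wls*, the carrier that WNT ligands need to leave the cell, was at 232 and 282 RPM in WT and 535 and 485 RPM in KO hosts (0.99 ± 0.10, adjusted p = 0.00102). *Cd44*, an adhesion receptor and reported β-catenin target, was at 561.2 and 538.5 RPM in WT and 944 and 869.5 RPM in KO hosts (0.72 ± 0.09, adjusted p = 0.00167), and *Tle1*, a corepressor of TCF factors, at 36.5 and 32.9 and 64.4 and 56.8 RPM (0.79 ± 0.10, adjusted p = 0.0021). These rose together with *Lrp5*. *Tnfrsf19*, another reported target, was lower (-1.01 ± 0.16, adjusted p = 0.00362), at 0.6 and 0.6 RPM in WT and 0.1 and 0 RPM in KO hosts, where it was near the level of 3 reads. TMM scaling gave 18 higher and 10 lower. Without LLC KO replicate 1 the counts fell to 5 and 3, and without LLC KO replicate 2 to 8 and 3.

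In B16 none of the 60 was called (0% of all genes). Averaged over both tumors, 7 were higher and 5 lower (20% called, under the 23% of all genes tested). The smallest adjusted p-values were those of *Wls* (0.56 ± 0.07, adjusted p = 0.00519), *Cd44* (0.34 ± 0.06, adjusted p = 0.0128), *Gsk3b*, a kinase of the β-catenin destruction complex (0.25 ± 0.05, adjusted p = 0.0157), and *Tle1* (0.36 ± 0.07, adjusted p = 0.0174). Leaving out 1 library gave 1 to 10 higher and 0 to 11 lower. The host effect differed between the tumors for 10 of them, 8 higher and 2 lower in LLC, and this share (16.7%) was near the 15.2% of all genes tested. *Cd44* (0.75 ± 0.12, adjusted p = 0.0131), *Wls* (0.86 ± 0.14, adjusted p = 0.0135), *Tle1* (0.87 ± 0.15, adjusted p = 0.0141) and *Tnks2*, a tankyrase that marks AXIN for breakdown (0.53 ± 0.12, adjusted p = 0.026), had the smallest adjusted p-values. *Wls* gave 233 and 245 RPM with B16 in WT hosts and 258 and 264 RPM in KO hosts. Without LLC KO replicate 1, without B16 WT replicate 1 or without B16 WT replicate 2 none of the 60 was called for this difference, and without B16 KO replicate 1, 1 was.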

How the data were processed

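RNA of 8 libraries (4 groups of 2, each a pool of 3 tumors) was sequenced by the authors as paired reads of 100 bases, trimmed with Trimmomatic, mapped to GRCm38.p4 with STAR and assigned to Ensembl genes with HTSeq; these tools are also named in the submitters' processing notes, and their versions are not given in the sources used here. The deposited number for a gene is a score: the authors scaled every library to a total of 20 M counted reads and rounded the outcome to an integer. Division by 20 turned this score into RPM, the reads of a gene in each M of reads assigned to genes. Such scaling keeps no whole reads, so edgeR and DESeq2 were not used. Depth was estimated from the spacing of low values, within the total that the study states, and is least certain for LLC KO 1. No column of per-sample values was left unused (0).

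A gene entered the test if 2 or more libraries held 1 RPM or more (14706 genes). The test ran on log2(RPM + 0.5) with limma 3.58.1 (R 4.3.3, with Python 3.11.15 for tables), with 1 model of the 4 group means, a mean-variance trend, 4 residual and 3.68 prior degrees of freedom, and Benjamini-Hochberg adjustment over all genes tested. Fold changes are on this scale, which understates the change of genes with low values. A gene was called at an adjusted p under 0.05. The libraries of a group are separate pools, so p-values measure the spread between pools. The scripts were tested on simulated data. The genes and lists were chosen with earlier results of these data known. Genes that were called in any contrast or reached a mean of 5 RPM in a group were named with values, together with *Axin2*, *Lef1*, *Lrp5* and *Lrp6*, and of the wider pathway list up to 4 called genes per contrast. Lengths and positions come from GENCODE M21 (GRCm38), in which 98.94% of the deposited identifiers and all 45 genes were found, and promoters from RefSeq (GRCm38.p6), with none used from chromosome 18. Alternatives tried were a pseudocount of 0.05 or 2 RPM, dropping the filter, raising it to 5 RPM, TMM and median-of-ratios scaling, each tumor alone, the replicate number as a block, and each library left out.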

Additional observations from a re-analysis of the deposited data

Results flagged for a closer look

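For 4 of the 29 genes the effect of the host differed between LLC and B16 tumors by limma's test of the difference itself, with adjustment over all genes tested. This share was close to the 15.2% of all genes tested. Only the call of *Fzd1* held in every alternative tried, and those of *Dkk3*, *Lrp5* and *Dkk2* were lost in some. The difference of the log2 effects, LLC minus B16, was -1.30 for *Fzd1*, -3.43 for *Dkk3*, 0.70 for *Lrp5* and 0.86 for *Dkk2*. For *Dkk3* the lower level in KO hosts was seen in LLC and not in B16, for *Fzd1* both tumors were read lower in KO hosts and LLC by more, for *Lrp5* both were read higher and LLC by more, and for *Dkk2* the LLC libraries were read higher and the B16 libraries lower in KO hosts. No group had enough libraries for a test of a single outlying sample.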

How the results depend on the processing

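Of 49 calls of single genes over the 5 comparisons, 17 were lost in at least 1 alternative and 32 in none. Of these 32, 24 were fitted in every alternative, and 8 (*Fzd3*, *Fzd8*, *Fzd9*, *Fzd10*, *Rspo3*, *Wnt2b* and *Wnt16* between the tumors, *Wnt16* between LLC hosts) were not, since a filter or a left-out library removed the gene. In LLC against B16 the calls lost were those of *Fzd6* and *Lrp5*; leaving out 1 library gave 17 to 18 genes higher and 5 to 8 lower. For the host effect in LLC (2 higher, 11 lower), no filter gave 1 and 6, the filter of 5 RPM 7 lower, each tumor alone 1 and 4, and leaving out 1 library 1 to 3 and 4 to 11; the lowest count came without LLC KO replicate 1. *Wnt2* (-0.85 without LLC WT replicate 1, 0.65 without LLC WT replicate 2), *Wnt11* (-0.55 and 0.56) and *Wnt10b* (-0.64 and 0.93) changed direction. In B16 leaving out 1 library gave 0 to 0. For the average (1 higher, 7 lower), no filter gave 3 lower, TMM scaling 2 higher, and leaving out 1 library 1 to 2 and 3 to 12. For the difference between the tumors (2 and 2), the pseudocount of 2 RPM gave 1 higher, no filter 0 and 1, and leaving out 1 library 0 to 4 and 1 to 6. The cause of these shifts was not tested, other than that fewer libraries, or more genes adjusted over, enter the fit. The replicate numbers are no pairing: deviations of same-numbered libraries correlated at -0.03 to 0.31 between groups. With the replicate block the host effect in LLC gave 2 higher and 11 lower, B16 0 and 0, the average 1 and 8, the difference 2 and 3, and LLC against B16 18 and 6. *Fzd8* in the average and *Wnt16* in the difference were then called; no other call of a named gene changed. The 49 calls include those built into the filter. These are the calls between the tumors of genes that passed through LLC only or B16 only, and the host calls of *Rspo3*. The filter also favored the calls of *Fzd8* between LLC hosts and of *Fzd10* between the tumors. Depth limits the genes near 3 reads (0.0973 to 0.17 RPM), such as *Wnt7b* in B16. With 2 pools a group, a host difference that stays under the threshold is not shown to be absent.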
